A study of Mus musculus with 6 samples.

Results

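The genes followed here encode antimicrobial peptides and secreted defence proteins of newborn mouse epidermis, and 9 of 24014 listed genes were taken by name. These were the beta-defensins Defb1, Defb3, Defb4, Defb6 and Defb14, the cathelicidin Camp, the siderophore-binding protein Lcn2, the protease inhibitor Slpi and the peptidoglycan recognition protein Pglyrp1. RNA-seq had been made from epidermal cells of dorsal skin at postnatal day 2 in 2 groups of 3 libraries. The blister group was skin in which a 4 mm syringe at 523.4 ± 1.3 mmHg of negative pressure had raised a suction blister, typically 3 mm across, and which was healing when collected. The control group was skin of the same age from the same study, and both groups were treated with 0.25% trypsin overnight and passed through a 70 µm filter. Both groups were wild type. The strain, how many animals went into each library and the hours between suction and collection were not given in the sources used here, so the p-values cover the spread from library to library, of which some may be technical.

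Skin is covered by microbes, and its keratinocytes and visiting leukocytes secrete small proteins that kill or starve them. Beta-defensins and cathelicidin are short cationic peptides that disrupt microbial membranes and also attract leukocytes through receptors. Lcn2 withholds iron by binding bacterial siderophores, Pglyrp1 binds the peptidoglycan of bacterial walls, and Slpi protects tissue from neutrophil elastase and cathepsin G. Camp, Lcn2, Slpi and Pglyrp1 are stored in neutrophil granules as well as made by epithelia, so bulk epidermal RNA does not tell which cells carried them, and more cells of a type and more RNA per cell cannot be told apart.

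Promoter sequence was available for 6 of the 9 genes in the RefSeq table for GRCm38.p6. It was lacking for Defb1, Defb4 and Defb14, which were called higher in blister epidermis, so the match counts leave them out. The 250 bases before the start site are shown for 5 of the 6. These hold letters that match binding motifs of factors known to act on defence genes. Capitals mark matches, found on either strand, to the C/EBP motif TTGCNNAA or to the NF-kappaB motif. Sequences run from 5′ to 3′ in the direction of the gene.
Defb3: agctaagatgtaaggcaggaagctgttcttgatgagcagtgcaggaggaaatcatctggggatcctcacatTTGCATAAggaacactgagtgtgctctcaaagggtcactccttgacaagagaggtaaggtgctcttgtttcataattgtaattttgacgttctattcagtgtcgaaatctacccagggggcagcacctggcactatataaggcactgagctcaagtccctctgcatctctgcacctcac
Defb6: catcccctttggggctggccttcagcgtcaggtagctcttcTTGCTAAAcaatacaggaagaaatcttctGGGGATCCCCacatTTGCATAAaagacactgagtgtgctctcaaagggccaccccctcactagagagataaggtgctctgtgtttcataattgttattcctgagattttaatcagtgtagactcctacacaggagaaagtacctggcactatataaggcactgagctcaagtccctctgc
Lcn2: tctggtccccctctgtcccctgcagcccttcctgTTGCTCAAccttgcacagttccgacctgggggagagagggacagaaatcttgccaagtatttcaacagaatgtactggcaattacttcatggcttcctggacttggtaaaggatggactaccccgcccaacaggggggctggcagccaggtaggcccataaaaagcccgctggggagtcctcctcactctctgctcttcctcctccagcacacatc
Slpi: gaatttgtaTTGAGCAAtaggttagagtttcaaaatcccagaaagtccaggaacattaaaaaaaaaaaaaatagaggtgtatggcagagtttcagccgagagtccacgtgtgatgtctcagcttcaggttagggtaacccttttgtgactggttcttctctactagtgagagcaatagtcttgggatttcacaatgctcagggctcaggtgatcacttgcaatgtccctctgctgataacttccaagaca
Pglyrp1: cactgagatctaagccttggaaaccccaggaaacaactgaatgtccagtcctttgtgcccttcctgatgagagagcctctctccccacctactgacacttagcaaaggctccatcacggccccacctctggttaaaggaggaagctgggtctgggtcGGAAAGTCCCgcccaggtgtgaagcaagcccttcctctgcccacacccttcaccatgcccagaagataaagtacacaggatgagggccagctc
The windows were chr8:19293111-19293360 on the plus strand for Defb3, chr8:19225228-19225477 on the plus strand for Defb6, chr2:32387740-32387989 on the minus strand for Lcn2, chr2:164356508-164356757 on the minus strand for Slpi and chr7:18884440-18884689 on the plus strand for Pglyrp1. The C/EBP letters stood in 4 of the 6 promoters, those of Defb3, Defb6, Lcn2 and Slpi, and in 9.56% of the 32851 promoters of the table cut to the same length. The NF-kappaB letters stood in 2 of the 6, those of Defb6 and Pglyrp1, and in 7.25% of all promoters. In Defb6, whose promoter held 2 C/EBP matches, the NF-kappaB match began 180 bases before the start site and the nearer C/EBP match began 166 bases before it, without overlap. The window of Camp held neither. Matches to the AP-1 motif TGANTCA, found in 6.75% of all promoters, and to the STAT motif TTCNNNGAA, found in 7.02%, were in 0 of the 6. The promoters of Defb3 and Defb6 were 74.0% identical over 265 aligned columns, with 40 bases in their longest shared run, and share the TTGCATAA match. A match describes letters in a window and is not evidence that a factor binds there.

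Of the 9 genes 6 were higher in blister epidermis: Defb1, Defb4, Defb14, Lcn2, Slpi and Pglyrp1. Defb1 was raised 2.76-fold, Pglyrp1 13.7-fold, and Defb14, Slpi and Lcn2 26.0-, 27.1- and 27.6-fold, while Defb4 had no count in any control library. Defb6 did not pass the test, and Defb3 and Camp had too few counts to enter it. None of the 9 was called lower, and of the 7 tested none had a negative fold change in edgeR, DESeq2 or limma. Calls come from the quasi-likelihood test of edgeR, with p-values adjusted by Benjamini-Hochberg over 14028 tested genes and a threshold of 0.05, which called 1367 genes higher (9.74% of those tested) and 1626 lower (11.6%). Of the 7 members that entered the test, 2 (Defb1 and Defb6) reached the count minimum in the 3 control libraries and 5 entered through the blister libraries alone, so a count over the 7 describes them and supports nothing. Their median log2 fold change was 4.70, with the control group of Defb4 set at 3 counts, against 0.00 over all tested genes. In CPM 7 of the 9 were higher in every blister library than in every control library, the exceptions being Defb6 and Camp, and so were 3253 of 20255 genes with a count (16.1%).

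**Figure D1:**
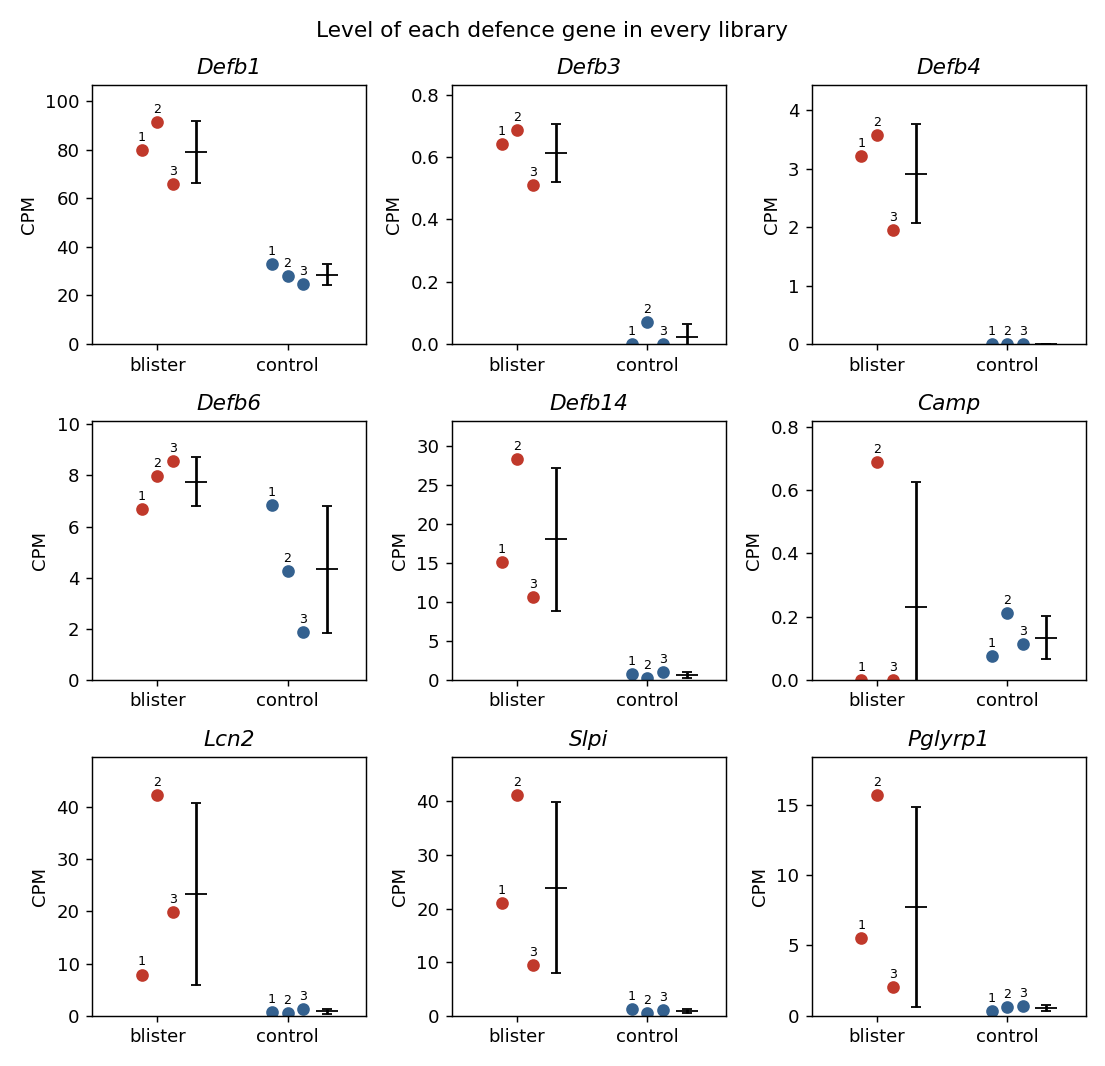
Level of each of the 9 genes in each library, in CPM (the count scaled by library total and TMM factor) on a linear axis that starts at 0 and differs between panels, with blister libraries left of control libraries; numbers are the replicates, and black bars are the mean ± SD of 3 libraries, cut off at 0. Defb1, Defb4, Defb14, Lcn2, Slpi and Pglyrp1 stood higher in every blister library than in any control library, whereas Defb6 and Camp overlapped.

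Library totals were 12972196, 7600567 and 12367439 counts in the blister group and 11743139, 13486784 and 15912863 counts in the control group, so that 1 count was worth between 0.0569 and 0.138 CPM. Keratinocyte markers fitted the labelled tissue, with Krt14, the keratin of basal keratinocytes, at 28645 CPM in blister and 7739 CPM in control libraries and all 11 listed keratinocyte markers present at tested levels. The first principal component, with 67.7% of the variance, placed blister 1, 2 and 3 at 64.9, 65.8 and 23.1 and control 1, 2 and 3 at -45.6, -43.6 and -64.5, so that blister 3 lay nearest to the controls. Xist, the RNA of the inactive X chromosome, stood at 838, 879 and 8.49 CPM in blister 1, 2 and 3. In control 1, 2 and 3 it stood at 1409, 16.9 and 0.512 CPM. Ddx3y, a gene of the Y chromosome, stood at 0.275, 0.826 and 62.0 CPM in blister 1, 2 and 3. In control 1, 2 and 3 Ddx3y stood at 1.30, 40.2 and 60.3 CPM. Xist was thus high and Ddx3y low in blister 1, blister 2 and control 1, and the reverse held in the other libraries. By these genes sex was not balanced between the groups, and the labels used here gave no sex. With Xist as a covariate 5 of the 6 member calls held. Scaling by library total alone, without TMM factors, moved the median of all tested genes to a log2 change of -0.25 and the calls to 544 higher and 2831 lower, and all 6 member calls held.

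Defb1, a beta-defensin that epithelia make without stimulation, had the highest mean level per kilobase in both groups, which in blister epidermis was close to that of Defb14. It had 79.8, 91.4 and 65.7 CPM in blister libraries 1, 2 and 3, against 33.0, 28.0 and 24.7 CPM in control libraries 1, 2 and 3. The lowest blister value was above the highest control value by more than the range within either group. The means were 79.0 ± 12.9 CPM in blister and 28.6 ± 4.15 CPM in control epidermis (SD, n = 3 each), a log2 fold change of 1.47 ± 0.17 SE (adjusted p = 0.00606, edgeR). This was the smallest fold change among the 6 called members.

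Defb14, regarded as the mouse counterpart of the human inducible defensin gene DEFB103, had a 26.0-fold higher level in blister epidermis. It had 165, 205 and 125 counts in blister libraries 1, 2 and 3, which is 15.1, 28.2 and 10.6 CPM, against 9, 4 and 18 counts in control libraries 1, 2 and 3, which is 0.690, 0.280 and 1.02 CPM. Every blister library was thus about 10 CPM or more and the controls were near 1 CPM or less. Defb14 averaged 18.0 ± 9.14 CPM in blister and 0.665 ± 0.373 CPM in control epidermis (SD, n = 3 each), with a log2 fold change of 4.70 ± 0.54 SE (adjusted p = 0.00613, edgeR).

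Defb4, an inducible beta-defensin related to human DEFB4A, was read in blister libraries alone. It had 35, 26 and 23 counts in blister 1, 2 and 3 (3.21, 3.58 and 1.95 CPM) and 0 counts in each control library. It was called higher in blister epidermis (edgeR adjusted p = 0.00679). The exact 95% counting interval of the ratio between the pooled groups began at 33.4. Setting its 84 blister counts against a limit of 3 counts over the control group, 0.0668 CPM, gave a ratio of 42.0, which leaves out counting error. A control level under that limit was not detectable at this depth.

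Defb3, a close relative of Defb4, had the lowest level per kilobase of the 5 defensins in blister epidermis. It was counted 7, 5 and 6 times in blister 1, 2 and 3, and 0, 1 and 0 times in control 1, 2 and 3. The groups did not overlap, but the gene missed the count minimum of 10. Pooled over each group it stood at 0.601 CPM in blister (95% exact Poisson interval 0.356 to 0.95) and 0.0223 CPM in control epidermis (0.000564 to 0.124), a ratio of 27.0 with a counting interval of 4.26 to 1125. When the filter on low counts was dropped, 20255 genes were tested, 1259 of them were called higher (6.22%), and Defb3 was among these with a log2 fold change of 4.25 ± 0.98 SE (adjusted p = 0.0217, edgeR).

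Defb6, a beta-defensin first described in mouse muscle, did not separate the groups. It had 6.70, 7.98 and 8.58 CPM in blister libraries 1, 2 and 3, against 6.83, 4.27 and 1.88 CPM in control libraries 1, 2 and 3. Control 1 reached the level of blister 1, so the groups overlapped, and the controls spread more widely than the blister libraries. Its means were 7.75 ± 0.959 CPM in blister and 4.33 ± 2.48 CPM in control epidermis (SD, n = 3 each). Its log2 fold change of 0.85 ± 0.43 did not pass (SE, edgeR adjusted p = 0.184), which does not show that the groups were alike. Of all 17 alternative fits none called Defb6, with log2 fold changes between 0.41 and 1.34.

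**Figure D2:**
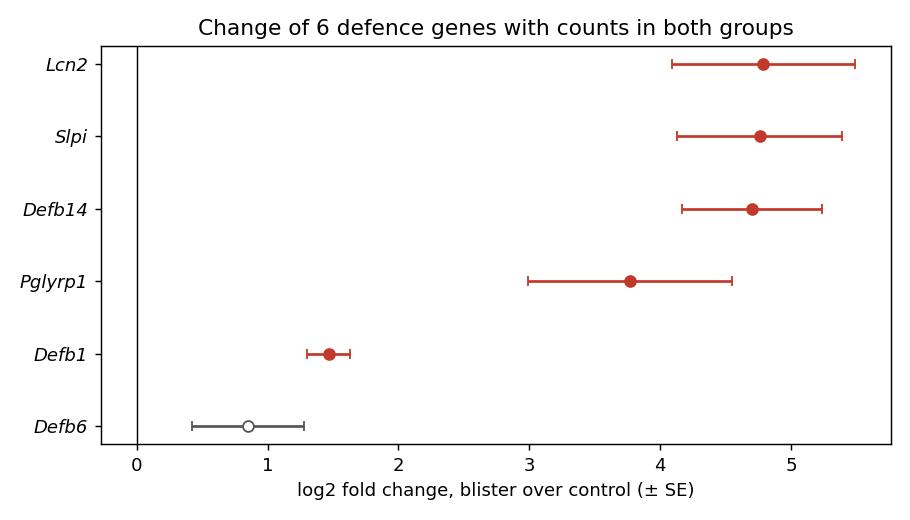
Log2 fold change, blister over control, of the 6 tested members with counts in both groups, with bars of 1 SE from edgeR; filled points had an adjusted p under 0.05. Defb14, Lcn2, Slpi and Pglyrp1 lay between 3.77 and 4.79, Defb1 at 1.47 and Defb6, open, at 0.85; Defb4 is left out because its control libraries had no count.

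The make-up of the beta-defensin counts, taken without regard to length, was followed as each gene's share. Summed over every Defb gene, the level was 106, 132 and 87.4 CPM in blister libraries 1, 2 and 3 and 40.7, 32.8 and 27.8 CPM in control libraries 1, 2 and 3. Defb1 made up 73.1 ± 3.49% of these counts in blister and 85.2 ± 4.09% in control libraries, and Defb14 made up 15.9 ± 4.81% in blister and 2.08 ± 1.46% in control libraries (SD, n = 3 each). Within single libraries the Defb14 share was highest in blister 2, at 21.3% (95% exact Clopper-Pearson interval 18.8 to 24.1%), against at most 3.69% among controls, in control 3 (2.20 to 5.77%). Defb4 added 2.65 ± 0.396% in blister libraries and 0% in control libraries, and Defb6 7.38 ± 2.11% in blister and 12.2 ± 5.05% in control libraries. The shares of Defb1, Defb3, Defb4 and Defb14 did not overlap between groups, with an exact two-sided permutation p of 0.1, the smallest that 3 against 3 libraries can give, while that of Defb6 overlapped (exact permutation p = 0.2). Shares of 1 total are tied to each other, and intervals cover counting error only.

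**Figure D3:**
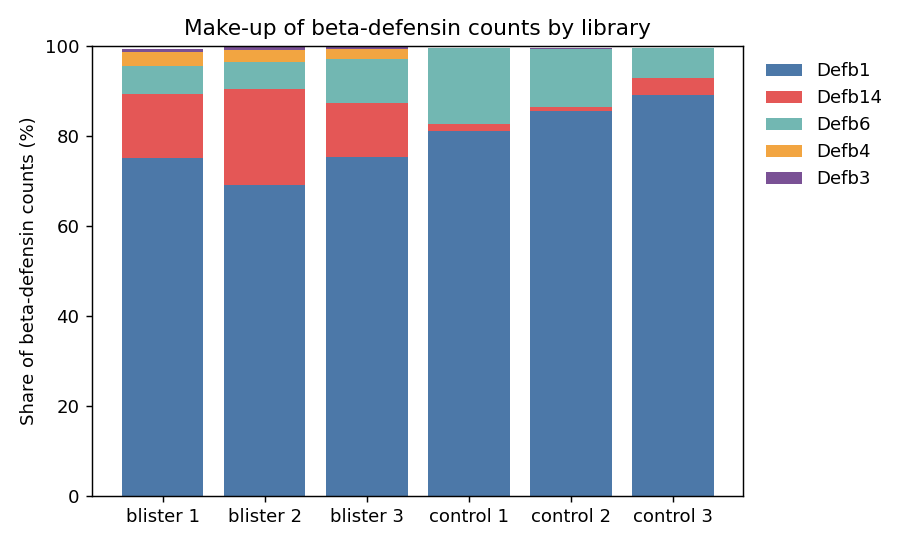
Share of all beta-defensin counts, in percent, taken by Defb1, Defb14, Defb6, Defb4 and Defb3 in each library, as stacked bars, blister libraries left of control libraries. Other Defb genes count in the total but are not drawn, so a bar can fall short of 100%. Defb1 took the largest share in every library, and Defb14 took 12.1 to 21.3% in the blister libraries against 0.855 to 3.69% in the controls.

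Other defensin genes were nearly silent. Of 43 genes with a Defb symbol 15 had a count in some library, and the 38 that are not among the 5 named above held 19 counts in all, 7 of them from Defb12 in blister 1. The 18 genes with a Defa symbol, alpha-defensins of the mouse gut and related sequences and pseudogenes, held 3 counts together, 2 of them from Defa-ps12. In the RefSeq order of genes Defb14, Defb4 and Defb6 are neighbours on chromosome 8, so neighbouring genes gave both called and uncalled changes. Defb3 lies on the same chromosome between Defb5 and Defb8. The promoter windows of Defb3 and Defb6 begin at positions 19293111 and 19225228 there. Defb4 shares a run of 72 bases with Defb8, which had 0 counts in all 6 libraries, and 33 bases is the longest run that Defb3 shares with Defb8 or Defb4. Reads from such stretches could be split by the counting, and how these were assigned was not given in the sources used here.

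Camp, the single mouse cathelicidin, was scarcely read. It was counted 0, 5 and 0 times in blister 1, 2 and 3, and 1, 3 and 2 times in control 1, 2 and 3, so the groups overlapped. Pooled, this was 0.167 CPM in blister (95% exact Poisson interval 0.0542 to 0.390) and 0.134 CPM in control epidermis (0.0490 to 0.291), a ratio of 1.25 with a counting interval of 0.302 to 4.91. A difference of up to that size in either direction was not detectable at this depth. Without the filter its log2 change was 0.45 ± 1.38 (SE, edgeR adjusted p = 0.857).

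Lcn2, the lipocalin that captures siderophores, had a fold change close to those of Slpi and Defb14. It had 86, 307 and 234 counts in blister libraries 1, 2 and 3, which is 7.89, 42.3 and 19.9 CPM, against 10, 6 and 22 counts in control libraries 1, 2 and 3, which is 0.767, 0.420 and 1.25 CPM. The lowest blister library exceeded the highest control library, and blister libraries differed among themselves by several fold. Lcn2 averaged 23.3 ± 17.4 CPM in blister, 13.9 CPM without blister 2, and 0.813 ± 0.418 CPM in control epidermis (SD, n = 3 each), with a log2 fold change of 4.79 ± 0.70 SE (adjusted p = 0.00814, edgeR).

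Slpi, the secretory leukocyte protease inhibitor, had 21.0, 41.2 and 9.51 CPM in blister libraries 1, 2 and 3, against 1.15, 0.420 and 1.02 CPM in control libraries 1, 2 and 3. All blister libraries were higher than all controls, with blister 2 the highest. The means were 23.9 ± 16.0 CPM in blister, 15.3 CPM without blister 2, and 0.865 ± 0.390 CPM in control epidermis (SD, n = 3 each). The log2 fold change was 4.76 ± 0.63 (SE, edgeR adjusted p = 0.0074).

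Pglyrp1 had 60, 114 and 24 counts in blister libraries 1, 2 and 3, which is 5.51, 15.7 and 2.04 CPM, against 4, 9 and 12 counts in control libraries 1, 2 and 3, which is 0.307, 0.630 and 0.683 CPM. The groups did not overlap, with blister 3 nearest to the controls. The mean was 7.75 ± 7.10 CPM in blister, 3.77 CPM without blister 2, and 0.540 ± 0.203 CPM in control epidermis (SD, n = 3 each), with a log2 fold change of 3.77 ± 0.78 SE (adjusted p = 0.0187, edgeR). Of the 6 calls this was the only one lost in any of its alternatives, 16 of which tested it: it was lost without control 1, 2 or 3 (edgeR adjusted p = 0.0672, 0.0581 and 0.0511) and with Xist as a covariate (edgeR adjusted p = 0.0712).

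Levels were compared between genes per kilobase of the longest coding transcript in GENCODE M21, whose gene models may differ from those behind the counts. On the scale of CPM per kilobase, blister epidermis held Defb1 at 90.5 ± 14.7, Defb14 at 88.2 ± 44.8, Slpi at 27.3 ± 18.3, Lcn2 at 25.5 ± 19.1, Defb6 at 24.0 ± 2.97 and Pglyrp1 at 11.2 ± 10.2, followed by Defb4 at 6.42 ± 1.88, Defb3 at 2.23 ± 0.338 and Camp at 0.303 ± 0.524 (SD, n = 3). Defb1 and Defb14 did not differ beyond their spread, and neither did Slpi, Lcn2 and Defb6. Control epidermis held Defb1 at 32.8 ± 4.76 and Defb6 at 13.4 ± 7.66, then Defb14 at 3.26 ± 1.83, Slpi at 0.987 ± 0.446, Lcn2 at 0.888 ± 0.456, Pglyrp1 at 0.778 ± 0.293, Camp at 0.176 ± 0.0908 and Defb3 at 0.0849 ± 0.147, with Defb4 at 0 (SD, n = 3). Slpi, Lcn2 and Pglyrp1 lay within their spread of each other there. The Defb14 model is only 204 bases of coding sequence, so its level per kilobase is uncertain and may be too high.

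Within the blister group most members followed 1 order of libraries. Defb1, Defb3, Defb4, Defb14, Slpi and Pglyrp1 were highest in blister 2 and lowest in blister 3, Lcn2 was highest in blister 2 and lowest in blister 1, and Defb6 was highest in blister 3. For Defb3 this order rests on 7, 5 and 6 counts in blister 1, 2 and 3, and for Defb4 on 35, 26 and 23. Counting error could change the order of both. The summed levels of some gene lists also had blister 2 highest and blister 3 lowest. These were neutrophil markers, neutrophil precursor genes, macrophage and Langerhans cell markers, other defence genes, and receptors and partners. The other lists, among them keratinocyte and wound keratinocyte genes, inducers and sensors, and proteases and inhibitors, did not have that order. Anxa2 made up most of the receptor sums, with 2813, 3526 and 2470 CPM of 3864, 4464 and 3405 CPM in blister libraries 1, 2 and 3. S100a8 and S100a9 stand in the lists of neutrophil markers and of other defence genes alike. For the neutrophil markers the sum was 731, 1140 and 373 CPM in blister libraries 1, 2 and 3, against 52.9, 39.1 and 59.9 CPM in control libraries 1, 2 and 3. Of 18 such markers listed 16 were tested, 15 were higher and 0 lower, also at an unadjusted p under 0.05 in edgeR. The median log2 fold change was 4.91, and their part in the member results was not tested. The 9 genes of neutrophil precursors in the marrow were low, and 1 of them was tested by edgeR, Prtn3, while DESeq2 called 1 of 8 higher. Prtn3 had 6, 0 and 5 counts in blister 1, 2 and 3 and 10, 12 and 14 counts in control 1, 2 and 3. Its log2 fold change of -1.15 ± 0.64 did not pass (SE, edgeR adjusted p = 0.222). Chil3, a chitinase-like protein, had 5, 78 and 6 counts in blister 1, 2 and 3 and 0, 0 and 6 in the controls, Ngp, a granule protein, 7, 28 and 2 in blister libraries and 2, 0 and 5 in the controls, and Cebpe, a factor of granule formation, 6, 7 and 4 in blister libraries and 1, 0 and 3 in the controls. Ctsg, the cathepsin that Slpi inhibits, had 0 counts in all libraries. Elane, the elastase that Slpi inhibits, had 1, 0 and 0 counts in blister 1, 2 and 3 and 0 counts in each control library. Mpo, myeloperoxidase, had 0 counts in each blister library and 2, 0 and 1 counts in control 1, 2 and 3. The summed level of these 9 precursor genes was 2.94, 16.4 and 1.53 CPM in blister libraries 1, 2 and 3, against 1.15, 0.840 and 1.82 CPM in control libraries 1, 2 and 3.

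Of 14 tested macrophage and Langerhans cell markers, 9 dermal fibroblast markers and 9 T and mast cell markers, 0 were called higher by edgeR, 0 by DESeq2 and 0 by limma, and at an unadjusted edgeR p under 0.05 the higher genes numbered 1, 0 and 0. Called lower by edgeR were 1 macrophage marker, 3 dermal fibroblast markers and 1 gene of the T and mast cell list. At an unadjusted p under 0.05 the lower genes numbered 1, 5 and 5. Pdgfra, a fibroblast receptor, averaged 3.83 CPM in blister and 38.6 CPM in control epidermis, 23.3 CPM without control 3, and Lum, a matrix protein, 1.15 CPM in blister and 16.2 CPM in control epidermis, 4.99 CPM without control 3. The third fibroblast gene was Dcn, and the others were Kit and Cx3cr1. Fibroblast calls fell to 1 without blister 1 or blister 3, the Kit call was lost without blister 1, blister 2, control 1 or control 3, and that of Cx3cr1 when any library but control 2 was left out. The fibroblast markers summed to 435, 1454 and 518 CPM in blister libraries 1, 2 and 3, against 1147, 1308 and 6893 CPM in control libraries 1, 2 and 3. Control 3 thus stood far above the rest, and blister 2 above control 1 and control 2. The mast cell genes Cpa3, Cma1 and Tpsb2, lower at the unadjusted p but not called, had 650, 906 and 851 counts in control 3 and few in other libraries. Kit stood at 56.9, 35.9 and 56.8 CPM in control 1, 2 and 3, so it did not share their pattern. The summed level of the macrophage and Langerhans cell markers was 265, 340 and 198 CPM in blister libraries, against 334, 248 and 333 CPM in control libraries. Of 11 tested keratinocyte markers 6 were called higher, Krt14 by 3.70-fold (edgeR adjusted p = 0.0045), and Lor, a cornified envelope protein, was called lower, at 1720 CPM in blister and 3463 CPM in control epidermis. The number higher was 4 without blister 1 and 3 without control 1, control 2 or control 3, and the Lor call was lost without blister 1, blister 2, control 1 or control 2. Hair follicle and sebaceous markers were called lower for 4 of 10 tested, Lhx2, Lgr6, Sox9 and Lrig1, and higher for 0 by edgeR (1 at an unadjusted p under 0.05, and 1 called by DESeq2), with 2 lower without blister 1, blister 2, control 1 or control 2. Wound keratinocyte genes such as Krt16 were higher for 9 of 10 tested, at 30614, 21170 and 19274 CPM in sum in blister libraries, against 4047, 3557 and 3184 CPM in control libraries, and 2 genes of that list, S100a8 and S100a9, are also neutrophil markers. The part of these markers in the member results was not tested. Whether keratinocytes, neutrophils or both carried Lcn2, Slpi, Pglyrp1 or Defb14 was not tested.

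**Figure D4:**
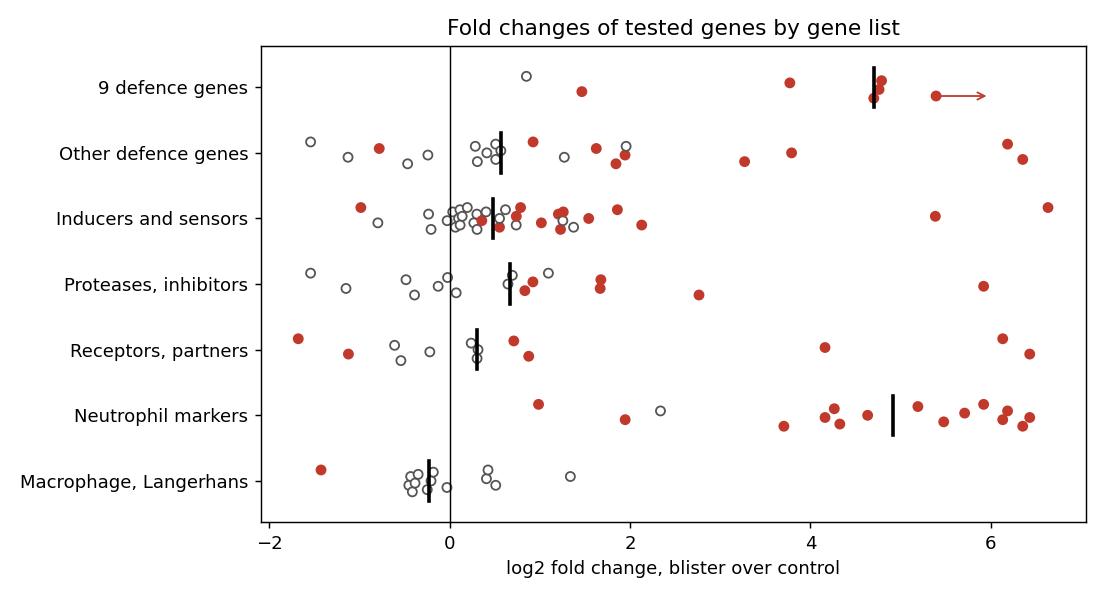
Log2 fold change, blister over control, of every tested gene of the 9 members and 6 other gene lists, filled where the edgeR adjusted p was under 0.05, with a black tick at each list's median. The arrow marks Defb4, drawn with its control group set at 3 counts. The members' median of 4.70 and the neutrophil markers' median of 4.91 lay above those of the other lists shown, and medians are a description with no test.

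Other secreted defence genes showed a mixed response. Of 36 listed 21 were tested, 8 were higher and 1 lower, and the median log2 fold change was 0.57. S100a9 and S100a8, the subunits of the metal-binding protein calprotectin, averaged 250 ± 113 and 162 ± 96.2 CPM in blister and 3.08 ± 2.02 and 2.22 ± 1.17 CPM in control epidermis (SD, n = 3 each), and both are also neutrophil markers. Pglyrp3, an epidermal relative of Pglyrp1, averaged 22.2 ± 4.67 CPM in blister and 5.78 ± 1.21 CPM in control epidermis, a log2 fold change of 1.94 ± 0.24 SE (adjusted p = 0.00658, edgeR). Duox1, an oxidase that makes hydrogen peroxide, averaged 56.4 CPM in blister and 15.7 CPM in control epidermis, and Wfdc12, which carries a whey acidic protein domain as Slpi does, 3.78 CPM in blister and 0.395 CPM in control epidermis. Cxcl14, an antimicrobial chemokine of resting skin, was lower, at 290 CPM in blister and 497 CPM in control epidermis (edgeR adjusted p = 0.0192). Rnase4 and Wfdc5 did not pass, at 148 and 37.0 CPM in blister and 121 and 28.0 CPM in control epidermis. Without control 1 the list had 4 higher and 0 lower, Wfdc12 was lost (edgeR adjusted p = 0.0517) and the control mean of S100a9 was 2.02 CPM, and the Cxcl14 call was lost without blister 1 (edgeR adjusted p = 0.0664) or control 1.

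Cytokines, sensors and regulators known to induce defence genes were called higher for 13 and lower for 1 of 34 tested out of 40 listed, and the median log2 fold change was 0.48. Osm, a cytokine that acts on keratinocytes, averaged 21.1 ± 9.12 CPM in blister and 0.208 ± 0.160 CPM in control epidermis (SD, n = 3 each), 0.120 CPM without control 1, a log2 fold change of 6.63 ± 0.57 SE (adjusted p = 0.00343, edgeR). The cytokine gene Il1b averaged 66.5 CPM in blister, 43.1 CPM without blister 1, and 1.64 CPM in control epidermis, 0.958 CPM without control 1. Il1f9, which encodes an interleukin of the IL-36 type, averaged 72.4 CPM in blister and 24.9 CPM in control epidermis, and Il1rn, the receptor antagonist, 124 CPM in blister and 61.6 CPM in control epidermis. Nfkbiz, a co-regulator that acts on Lcn2 and beta-defensin genes, averaged 66.6 CPM in blister and 28.8 CPM in control epidermis, and Hif1a, the oxygen-sensing factor, 189 CPM in blister and 80.5 CPM in control epidermis. Cebpa and Tnfrsf1a did not pass, at 435 and 272 CPM in blister and 443 and 220 CPM in control epidermis. The call lower was Vdr, the vitamin D receptor that acts on the cathelicidin gene in human cells, at 121 CPM in blister and 241 CPM in control epidermis (edgeR adjusted p = 0.0375), and it was lost when any library but blister 3 was left out. Il17a and Il22, cytokines that drive beta-defensin genes, had 0 counts in all 6 libraries, which allows up to 0.100 CPM in blister and 0.0668 CPM in control epidermis. The number called higher was 8 without blister 1, 7 without control 1, 8 without control 2 and 8 without control 3, and 9 when scaled by library total alone.

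Among proteases that process such peptides and inhibitors like Slpi, 6 were called higher and 0 lower by edgeR of 16 tested out of 22 listed (7 and 3 at an unadjusted p under 0.05, and 7 and 1 called by DESeq2), and the median log2 fold change was 0.67. Klk6, a secreted kallikrein, averaged 331 ± 53.7 CPM in blister and 48.8 ± 20.5 CPM in control epidermis (SD, n = 3 each), a log2 fold change of 2.76 ± 0.32 SE (adjusted p = 0.00613, edgeR). Klk7, which can cleave human cathelicidin, averaged 878 CPM in blister and 493 CPM in control epidermis, and Ctsl, a lysosomal cathepsin, 330 CPM in blister and 174 CPM in control epidermis. The Klk7 call was lost without blister 1, blister 2 or control 1, and that of Ctsl without blister 2, control 1 or control 2. The serpins Serpinb1a and Serpinb6c averaged 23.2 and 20.8 CPM in blister and 7.21 and 6.54 CPM in control epidermis, and both calls were lost without control 1. Mmp9, a gelatinase carried by neutrophils, averaged 52.0 CPM in blister, 16.6 CPM without blister 2, and 0.873 CPM in control epidermis, 0.389 CPM without control 1. Spink5 and Spint2, inhibitors of epidermal proteases, did not pass, at 330 and 284 CPM in blister and 211 and 270 CPM in control epidermis. Without control 1 the list had 2 called higher, and when scaled by library total alone 4 higher and 3 lower.

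Receptors and partners of the 9 proteins changed in both directions, with 5 higher and 2 lower of 13 tested out of 19 listed and their median log2 fold change was 0.30. Of the higher genes Trem1, Fpr2 and Fpr1 are also in the list of neutrophil markers, so the lists are not separate results. Slc22a17, described as a receptor for Lcn2, was lower, at 33.9 ± 3.49 CPM in blister and 73.9 ± 0.171 CPM in control epidermis (SD, n = 3 each), a log2 fold change of -1.12 ± 0.11 SE (adjusted p = 0.00441, edgeR), so it and Lcn2 moved in opposite directions. Trem1, a receptor of myeloid cells for which PGLYRP1 has been described as a ligand in human cells, averaged 19.7 CPM in blister and 0.282 CPM in control epidermis, a log2 fold change of 6.13 ± 0.66 SE (adjusted p = 0.00489, edgeR). Fpr2, a receptor for cathelicidin, averaged 8.52 CPM in blister, 5.41 CPM without blister 2, and 0.0802 CPM in control epidermis, 0.0350 CPM without control 3, and its relative Fpr1 4.46 CPM in blister and 0.228 CPM in control epidermis, 0.115 CPM without control 3. Anxa2, which binds SLPI in human macrophages, averaged 2936 CPM in blister and 1599 CPM in control epidermis (edgeR adjusted p = 0.0141). P2rx7, an ATP-gated channel through which human cathelicidin acts, was lower, at 5.37 CPM in blister and 17.2 CPM in control epidermis (edgeR adjusted p = 0.0149). Grn, whose product Slpi shields from elastase, did not pass, at 145 CPM in blister and 123 CPM in control epidermis, and Ccr6, the receptor for several beta-defensins, had 2, 0 and 0 counts in blister and 0, 0 and 1 counts in control libraries. Without control 1 the list had 3 higher and 1 lower, P2rx7 was lost (edgeR adjusted p = 0.0507) and Anxa2 was lost (edgeR adjusted p = 0.0635), as it was without control 2. The list had 3 higher without control 2 and 4 lower without blister 3.

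The genes whose profile was most like each tested member were ranked by the root mean square difference in centred log2 CPM over the 6 libraries, among genes of at least 5 CPM. Defb1 was closest to Ldha, at 0.0923, and to Sox15, at 0.109, the smallest differences found for any member. Defb14 and Slpi were near each other, at 0.288, and the gene closest to Defb14 was the neutrophil receptor gene Csf3r, at 0.225, which was also second for Slpi, at 0.321, and for Lcn2, at 0.487. Lcn2 was closest to Spp1, at 0.463, and Pglyrp1 to Stfa2l1, at 0.449, and Plaur, at 0.526. Defb4 was closest to the wound keratin Krt16, at 0.360, and to Sprr2g, at 0.417, and Defb6 to Cst6, at 0.168, and Sprr4, at 0.229. Logs were taken after adding 2 counts, scaled to library size. Defb4 had no count in any control library, so its control values came from the added counts alone. Which genes were closest to Defb4 therefore depends on that setting. All these profiles hold the difference between the groups, so 6 libraries in 2 groups give the ranking few independent points.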

How the data were processed

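Poly(A) RNA-seq of 6 libraries (3 blister, 3 control) was analysed. The authors deposited unscaled read counts by gene symbol, in 1 table for each library. HISAT2 2.0.0 for alignment, featureCounts for counting and the builds NCBIM37 and mm9 are named in the submitters' processing notes, and the counter's version and strand setting were not given in the sources used here. Of 24014 genes 3759 had no count.

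All genes were fitted with edgeR 4.0.16 (R 4.3.3), quasi-likelihood F-test, TMM scaling and group as the single term, after filterByExpr (minimum count 10, total 15), which left 14028 genes. Two-sided p-values received Benjamini-Hochberg adjustment over these genes. CPM uses TMM-scaled totals. The TMM factors of the blister libraries were 0.841, 0.957 and 0.953, and those of the controls 1.11, 1.06 and 1.11. A group with no count was set at 3 counts over the group for a ratio, which leaves out counting error in the other group. Intervals cover counting error only.

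The 9 genes and the gene lists were chosen with earlier results of these data known. Every member is named, and from each list the 6 smallest p-values and the 2 most abundant uncalled genes, plus 2 most alike genes per tested member. Further genes (Vdr, Il17a, Il22, Ccr6, Ctsg, Elane, Mpo, Chil3, Ngp, Cebpe, Prtn3, Pdgfra, Lum, Dcn, Kit, Cpa3, Cma1, Tpsb2, Cx3cr1, Lhx2, Lgr6, Sox9, Lrig1, Lor, Krt14, Krt16, Xist, Ddx3y, Defa-ps12 and Defb12) were singled out after their values were seen. Promoters come from RefSeq (GRCm38.p6), cut to 250 bases. Transcript models are GENCODE M21. Alternatives included DESeq2 1.42.0 and limma-voom (limma 3.58.1). The fitting was tested on simulated data.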

Additional observations from a re-analysis of the deposited data

How the results depend on the processing

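Defb1, Defb14, Lcn2 and Slpi kept direction and call under all 17 alternatives, with a highest adjusted p of 0.0379 (Lcn2, edgeR without control 1). Defb4 kept both in the 16 that tested it, Defb6 was called in 0 of 17, and no direction turned among the 7 members tested in the main fit. Direction was not followed for Camp and Defb3. With Xist as a covariate 680 genes were called higher and 1016 lower, and the log2 fold change of Pglyrp1 was 3.30 without a call. Library totals alone gave 544 higher and 2831 lower. Leaving out 1 library at a time gave 306 to 1998 genes higher and 479 to 2063 lower, and 2.77 to 4.25 for Pglyrp1, whose call was lost without any 1 control library. DESeq2 called 1965 genes higher and 6 members. With no filter 7 members were called, Defb3 being added, and with at least 5 CPM in 3 libraries 4, since Defb4 and Pglyrp1 were then not tested. Deviations of libraries with the same replicate number had no common sign (r = 0.212, -0.259 and 0.0107 for numbers 1, 2 and 3). With 3 libraries in each group these values cannot exclude a pairing. A replicate block in the fit gave 1365 genes called higher and 1511 lower, with 6 members. The causes of these differences were not tested. Depth limits Camp and Defb3 most, at 18 counts or fewer per group.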
